A study of Rattus norvegicus with 21 samples.

Results

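A set of 250 genes was examined in the rat urinary bladder, out of 15225 genes that passed a filter on low counts and 32754 genes in the count table. The genes were chosen by their measured levels, given as log2 CPM (a read count relative to the scaled size of its library). A gene was included when all 3 libraries from bladders with spinal cord injury (SCI) lay above all 3 noninjured controls at 8 weeks and again at 16 weeks. The mean difference had to be at least 0.4 log2 units at each of these times, and the mean difference at 2 weeks had to lie between -0.2 and 0.2. Of the 473 genes that met the conditions at 8 and 16 weeks, 250 also met the condition at 2 weeks. These genes made up 1.64% of the genes tested. Because the differences between SCI and control chose the genes, those differences are given as a description without a test.

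The genes are those with a difference between SCI and control in the established and chronic phases after injury and little or none at the end of spinal shock. After transection of the cord, the bladder loses its supraspinal control and first does not contract reflexly. A spinal reflex then emerges, the sphincter contracts against it, and the bladder empties against resistance. The wall is known to thicken under this load through growth of the smooth muscle and deposition of matrix. In a comparison with controls of the same week, a gene can appear as higher after injury with a higher level in injured bladders over time or with a lower one in noninjured bladders. The values of each arm are therefore given on their own.

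All rats were male, of the outbred Sprague Dawley strain, and labelled wild type (WT). Injury was a complete transection of the spinal cord at T8 in rats 6 to 7 weeks old. Full-thickness bladders were taken 2, 8 and 16 weeks after SCI, and from noninjured controls at 0, 2, 8 and 16 weeks. This gave 7 groups of 3 libraries, 21 in all, and the controls were age-matched and uninjured. The labels name no sham-operated group, so effects of surgery and of transection cannot be told apart.

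The 21 libraries held between 8087726 and 15472537 counts (median 9584812). The files give genes by Ensembl identifier only, and 0 of the 32754 identifiers matched the RefSeq table used for names. The roles of the genes, the pathways they belong to and markers of the cell types in the bladder wall were therefore not analysed here, and only 2 identifiers are named. Since whole bladder wall was measured, fewer cells of a type and less RNA per cell cannot be told apart. The libraries labelled control 0 weeks replicate 2 and SCI 8 weeks replicate 2 stood apart from the other libraries of their groups. They did so for these genes and over the whole table. The chi-square per degree of freedom of 0-week pairs with replicate 2 was 59.9 and 32.4, against 21.65 for the other pair. For SCI bladders of 8 weeks these values were 34.2 and 21.4, against 7.41. The main values that rest on these libraries are given with and without them.

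At 8 weeks, the median difference between SCI and control over the 250 genes was 0.62 log2 units, a 1.53-fold higher level, and the differences ranged from 0.40 to 2.35. At 16 weeks the median difference was 0.58 log2 units, or 1.5-fold, with a range from 0.40 to 1.46. Most differences were modest. Only 7 genes reached 1 log2 unit at 8 weeks and 11 at 16 weeks, and 0 reached it at both. At 8 weeks 118 genes, and at 16 weeks 135 genes, differed by less than 0.6. The difference was larger at 8 than at 16 weeks for 141 genes, so neither week was uniformly the more extreme.

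The 2-week difference had a median of 0.10 log2 units, and it was above 0 for 201 genes and below 0 for 49. Over all tested genes, 50.2% had a 2-week difference above 0 and the median was 0.00. The condition at 2 weeks thus admitted mostly genes with a slightly higher level after SCI. The 3 members nearest the upper limit had 2-week differences of 0.199 in each case, and the 3 nearest genes beyond it had 0.2004, 0.2008 and 0.2010. The 3 members nearest the lower limit of the late difference had a smaller value of 0.402 in each case, and the nearest genes beyond it had 0.399, 0.3995 and 0.3995. A further 470 genes met every other condition but fell short of 0.4 at 8 or 16 weeks. The set is therefore a slice of a continuum.

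At an adjusted p under 0.05 (quasi-likelihood F test of edgeR, Benjamini-Hochberg over all tested genes), 113 of the 250 genes were called higher after SCI at 8 weeks, where 3.28% of all tested genes were. At 16 weeks 75 were called higher, against 2.38% of all tested genes. Of the members, 57 were called higher at both weeks, against 0.906% of all tested genes, and 119 were called at neither, against 88.1%. These contrasts chose the genes, so nothing is read from the counts. They also belong to 1 fit of all 21 libraries. DESeq2 called 138 members at 16 weeks (11% of all tested genes in either direction), and edgeR fitted to only the groups compared called 25 at 8 weeks (1.74%) and 187 at 16 weeks (13.5%). The counts rested on single animals. Without SCI replicate 1, 2 or 3 the count at 8 weeks was 2, 166 or 0, where the same fits called 0.21%, 17.1% or 0.401% of all tested genes in either direction (8.41% with all libraries). Without control replicate 1, 2 or 3 it was 39, 22 or 31, beside 3.44%, 2.95% or 4.5% of all tested genes. At 16 weeks it was 0, 11 or 1 without SCI replicate 1, 2 or 3, beside 0.0788%, 0.703% or 0.112% of all tested genes (5.62% with all libraries). Without control replicate 1, 2 or 3 it was 0, 26 or 18, beside 0.118%, 3.31% or 1.29%. The counts of members thus moved with those of the whole table. At 2 weeks edgeR and DESeq2 each called 0 members, where they called 0% and 0.42% of all tested genes. At an unadjusted edgeR p under 0.05 there were also 0, where 2.48% of all tested genes were higher and 4.2% lower after SCI.

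The levels in each library describe how the late difference was made up. The level of each gene was expressed relative to its own mean over the 21 libraries, and the median over the 250 genes was taken in each library. In 8-week controls this median was -0.268, -0.478 and -0.368 log2 units in replicates 1, 2 and 3, and in 16-week controls -0.500, -0.359 and -0.254. All 6 of these libraries were low. In 2-week controls it was 0.135, 0.237 and 0.0113, and in SCI bladders at 2 weeks 0.223, 0.0720 and 0.373. In SCI bladders at 8 weeks the values were 0.404, 0.00794 and 0.301, and at 16 weeks 0.257, 0.178 and 0.220. The 9 SCI libraries and the 3 controls of 2 weeks thus overlapped, and all 12 lay above the 6 later controls. The rule itself places the SCI libraries of 8 and 16 weeks above the controls of their week. It also keeps the 2-week means of SCI and control within 0.2 of each other. It does not set where the 2-week libraries lie relative to the later ones. The order of the libraries thus restates the rule in part and is a description.

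**Figure D1:**
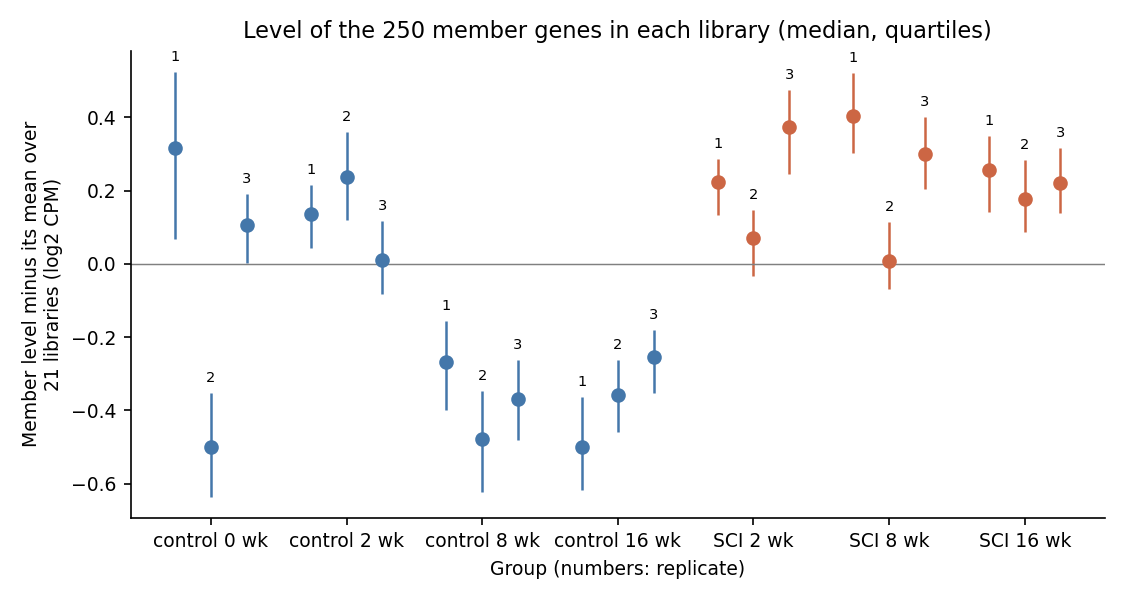
Level of the 250 genes in each of the 21 libraries, as log2 CPM minus the gene's mean over all libraries. Points are medians over the genes, bars run from the lower to the upper quartile, and numbers are replicates. The 6 controls of 8 and 16 weeks lie between -0.500 and -0.254, and the 9 SCI libraries lie between 0.00794 and 0.404. The rule places the SCI libraries of 8 and 16 weeks above the controls of their week.

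As group means of these library values, controls were at 0.128 ± 0.113 (SD, n = 3) at 2 weeks, -0.371 ± 0.105 (SD, n = 3) at 8 weeks and -0.371 ± 0.123 (SD, n = 3) at 16 weeks. SCI bladders were at 0.223 ± 0.150 (SD, n = 3) at 2 weeks, 0.238 ± 0.206 (SD, n = 3) at 8 weeks and 0.218 ± 0.0394 (SD, n = 3) at 16 weeks. The SCI means of the 3 weeks lay within their SDs of each other, as did the control means of 8 and 16 weeks. For SCI this rested on replicate 2 of 8 weeks, without which the 8-week mean was 0.353 ± 0.0730 (SD, n = 2), above the 16-week mean by more than either SD. A name such as genes raised in chronic SCI would go against these levels. The set is described here by its rule, as the late-difference genes.

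Gene by gene, the control mean was lower at 8 than at 2 weeks for all 250 late-difference genes and lower at 16 than at 2 weeks for 247. The median change in controls was -0.51 log2 units at 8 weeks, 0.703 times the 2-week level, and -0.50 log2 units at 16 weeks, 0.708 times that level. Over all tested genes the median changes in controls were 0.00 and 0.01. In SCI bladders the median change of the 250 genes from 2 weeks was 0.02 log2 units at 8 weeks and -0.01 at 16 weeks. In these bladders the quartiles of the change were -0.06 and 0.13 at 8 weeks, and -0.08 and 0.09 at 16 weeks. Without SCI 8 weeks replicate 2 the median SCI change at 8 weeks was 0.14. The rule sets a lower bound on the sum of the decline in controls and the increase in SCI bladders, and it does not set how that sum divides between them. These changes come from the libraries that chose the genes and are a description. Change, decline and increase refer here to differences between group means, of which few passed the adjusted threshold in the fit of all libraries.

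**Figure D2:**
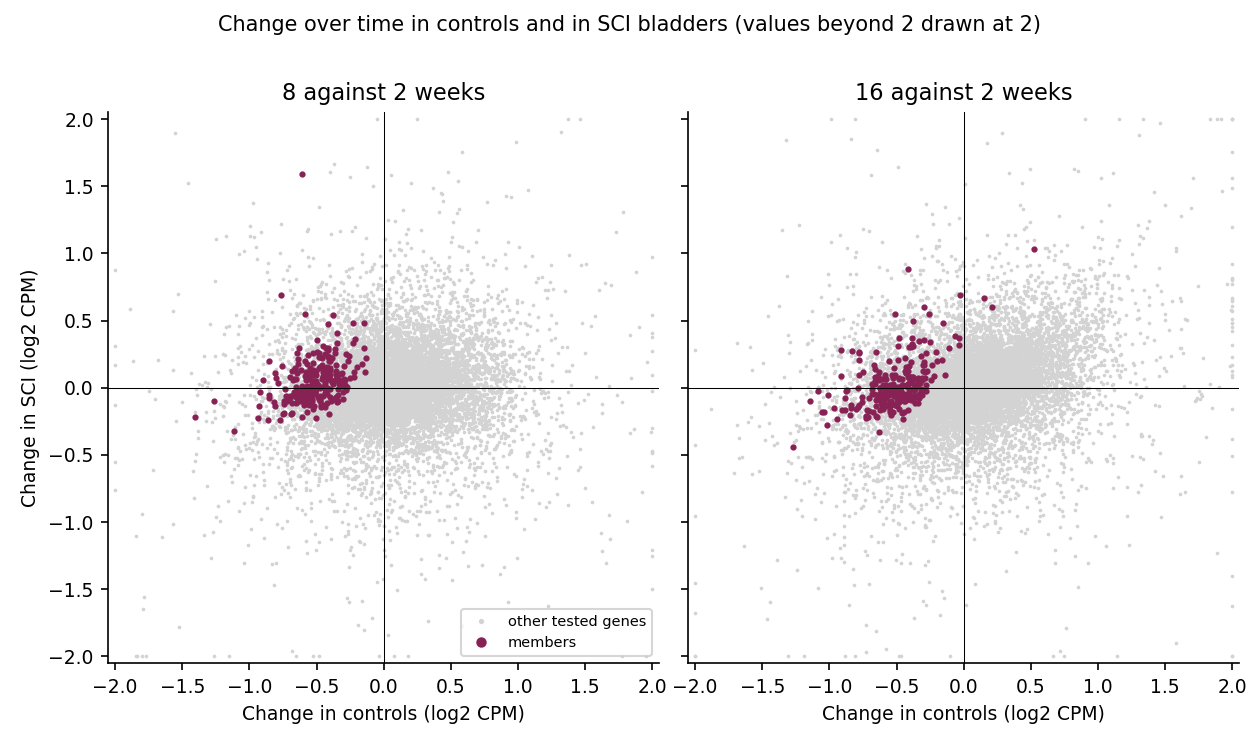
Change of each gene from 2 weeks to 8 weeks (left) and to 16 weeks (right), in controls on the horizontal axis and in SCI bladders on the vertical axis, both as differences of mean log2 CPM. Dark points are the 250 late-difference genes and grey points the other tested genes. All 250 dark points at 8 weeks and 247 at 16 weeks lie left of 0, around a median control change of -0.51 and -0.50, and most lie near 0 on the vertical axis.

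The decline in controls was larger than the increase in SCI bladders for 239 genes at 8 weeks, for 231 at 16 weeks and for 228 at both, where the shares of all tested genes were 49.4%, 50% and 39.3%. Without SCI 8 weeks replicate 2 it was larger for 229 genes at 8 weeks (49.1% of all tested genes) and for 220 at both (37.5%). A decline of at least 0.4 log2 units in controls was present at both weeks for 156 members, against 5.89% of all tested genes. An increase of at least 0.4 in SCI bladders was present at both weeks for 5 members, or 2% of them, against 3.12% of all tested genes. For 185 members the SCI means of 8 and 16 weeks were both within 0.2 of the 2-week SCI mean, compared with 59.4% of all tested genes. Without SCI 8 weeks replicate 2 the SCI increase was present for 6 members (2.6% of all tested genes) and the flat level for 139 (56.2% of all tested genes). Flat levels across the injured bladders were thus common among all genes, and how common they were among the late-difference genes depended on that library.

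The separation between libraries is given next as a description, since the rule used all of these libraries and requires controls below SCI bladders at 8 and 16 weeks. All 3 controls of 8 weeks lay below all 3 controls of 2 weeks for 186 members, or 74.4%, against 13% of all tested genes. At 16 weeks this held for 191 members, or 76.4%, against 17.4% of all tested genes. All 6 later controls lay below all 3 controls of 2 weeks for 168 members, against 8.01% of all tested genes. In SCI bladders, the 3 libraries of 8 weeks lay above those of 2 weeks for 10 members and below them for 3, where 5.27% and 5.18% of all tested genes did so. Without SCI 8 weeks replicate 2 these counts were 63 and 3, where the shares of all tested genes were 11.2% and 11%. For 16 weeks these counts were 16 and 4, where the shares of all tested genes were 6.81% and 6.59%. All 6 later SCI libraries lay above the 3 of 2 weeks for 3 members, against 1.87% of all tested genes, and without SCI 8 weeks replicate 2 this held for 12, against 2.67%.

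In the model across all genes, the number of changes over time that passed the adjusted threshold depended on the fit, and it was small with all 21 libraries in 1 model. The libraries compared had also chosen the genes, so the counts that follow describe the members and nothing is read from their distance to the shares of all tested genes. Between 2 and 16 weeks in controls, 8 members were called lower by edgeR's quasi-likelihood test and 0 were called higher, where 0.151% of all tested genes were called lower and 0.256% higher. Without any of 5 single libraries (control 2 weeks replicate 1, 2 or 3, control 16 weeks replicate 1 or 3) this count was 0, and without control 16 weeks replicate 2 it was 6. DESeq2's Wald test called 70 members lower in this comparison, and 5.9% of all tested genes in either direction. Between 2 and 8 weeks in controls edgeR called 0 members (0% of all tested genes) and DESeq2 called 29 lower (1.77% of all tested genes in either direction). With only the groups compared in the fit, edgeR called 45 members lower at 8 weeks (2.97%) and 128 at 16 weeks (10.3%). At an unadjusted p under 0.05, edgeR had 168 members lower at 8 weeks and 174 lower at 16 weeks, where the shares of all tested genes were 8.67% and 11%. In either direction the former count was 105 without control 2 weeks replicate 2 (11.5% of all tested genes, against 18.9% with all libraries). The latter was 115 without that library (16.8%) and 106 without control 16 weeks replicate 1 (16.2%), against 23.7% of all tested genes with all libraries. It had 0 members higher at either week, where those shares were 10.3% and 12.7%.

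In SCI bladders edgeR and DESeq2 each called 0 members between 2 and 8 weeks and 0 between 2 and 16 weeks. Among all tested genes, 0% had a higher call and 0.0131% a lower call for 8 weeks. For 16 weeks these shares were 0.0131% and 0.0328%. These are edgeR's calls, and DESeq2 called 0.144% and 0.164% of all tested genes in either direction at 8 and 16 weeks. At an unadjusted edgeR p under 0.05, 4 members were higher at 8 weeks and 9 at 16 weeks, with shares of 2.27% and 2.66% among all tested genes. In either direction, the 8-week count was 10 when SCI 8 weeks replicate 2 was left out (4.82% of all tested genes, against 4.49% with all libraries). It was 2 or 1 when replicate 1 or 3 of that group was left out (5.69% or 3.95%), and 2 when replicate 2 or 3 of the 2-week SCI group was (4.58% or 3.75%). The 16-week count was 4 without SCI 16 weeks replicate 2 (3.58%, against 5.23% with all libraries) and 5 without SCI 2 weeks replicate 2 (4.64%). In the other direction there were 0 members at either week, with shares of 2.22% and 2.57%. The test of whether the SCI effect differed between 8 and 2 weeks called 0 members (0.0197% of all tested genes), with 93 at an unadjusted p under 0.05 (8.59% of all tested genes). That between 16 and 2 weeks called 0 (0% of all tested genes), with 78 unadjusted (7.75%). The rule requires such a difference, so these counts show only that no member carried it past the adjusted threshold with 3 animals per group.

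The 0-week controls entered the rule only through the filter and the scaling. The 2-, 8- and 16-week controls they are compared with did enter it, and the rule favours genes that are low in the later controls. Differences from 0 weeks therefore restate the selection in part and are a description. Their library medians were 0.317, -0.501 and 0.106 in replicates 1, 2 and 3. Replicates 1 and 3 lay in the range of the 2-week controls or above it, and replicate 2 lay at the level of the lowest later controls. The group was the most variable of the 7 for the late-difference genes, with a median SD between replicates of 0.467 log2 units per gene, against 0.252 for all tested genes. In the other groups the median SD of the members was between 0.122 and 0.228, and that of all tested genes between 0.142 and 0.184. The 0-week group was thus the most variable for all tested genes as well.

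**Figure D3:**
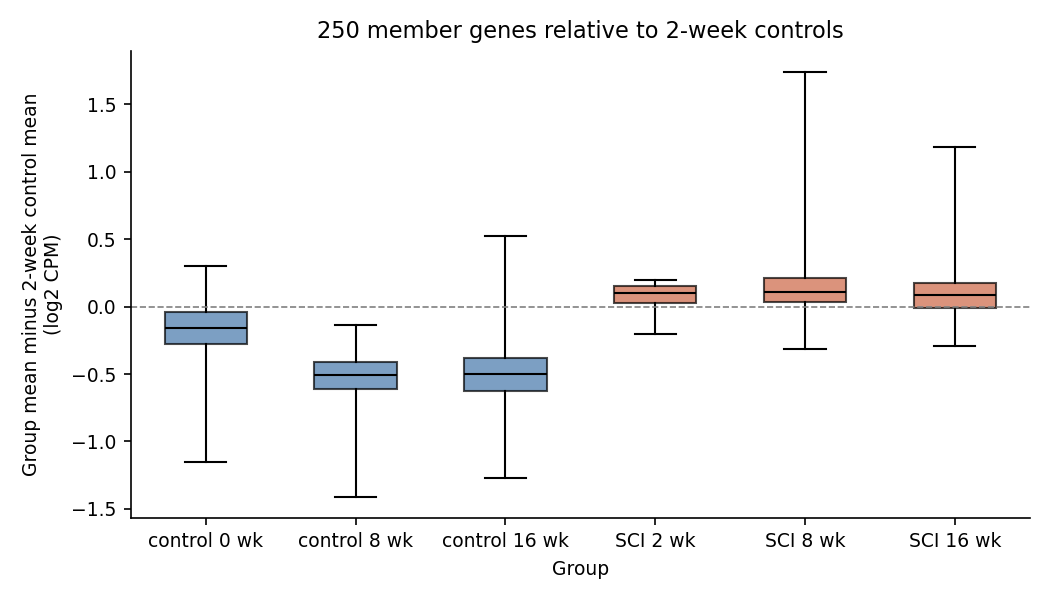
Mean level of each of the 250 genes in 6 groups, as the difference in log2 CPM from its mean in 2-week controls. Boxes show the median and quartiles, and whiskers run to the lowest and highest gene. The medians are -0.16 in 0-week controls, -0.51 and -0.50 in controls of 8 and 16 weeks, and 0.10, 0.11 and 0.08 in SCI bladders of 2, 8 and 16 weeks.

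The 0-week mean was above both later control means for 228 of the 250 genes, against 37.6% of all tested genes, and below the 2-week mean for 207, against 48.2%. It lay between them for 187, against 12.1%. Without control 0 weeks replicate 2 these counts were 238, 92 and 80, where the shares of all tested genes were 40%, 48.8% and 7.92%. Relative to 0 weeks, the median change in controls was 0.16 log2 units at 2 weeks, -0.35 at 8 weeks and -0.35 at 16 weeks. The size of these values rested on control 0 weeks replicates 1 and 2, and the direction at 2 weeks rested on replicate 2. Without replicate 2 the medians were -0.09, -0.59 and -0.59, and without replicate 1 they were 0.32, -0.17 and -0.16. The medians for 8 and 16 weeks were thus below 0 with either library left out, and that for 2 weeks changed sign. For single genes edgeR called 0 members between 0 and 2 weeks in controls and DESeq2 called 1 (0.296% of all tested genes). At an unadjusted edgeR p under 0.05, 23 were higher at 2 weeks and 0 were lower, where the shares of all tested genes were 6.82% and 6.61%. In either direction there were 52 without control 0 weeks replicate 1 (8.16% of all tested genes, against 13.4% with all libraries), 36 without replicate 3 (18.4%) and 32 without replicate 2 (15.3%). There were 12 without control 2 weeks replicate 2 (10.4%).

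With all 3 controls of 0 weeks, 7 members had every 0-week library above all 6 later controls, a share of 2.8% against 2.59% of all tested genes. Without replicate 2, whose omission was chosen after its values were seen, the count was 187, or 74.8%, against 13.2% of all tested genes. The 0-week and 2-week controls overlapped for most members. The 3 libraries of 2 weeks lay above those of 0 weeks for 23 members, against 8.12% of all tested genes, and below them for 0, against 7.53%.

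The late-difference genes moved together from animal to animal within a group. In control 0 weeks replicate 2, 231 of the 250 genes had their lowest level of the group, where 34.5% of all tested genes did. In SCI 8 weeks replicate 2, 212 genes were the lowest of the group, against 39.3% of all tested genes. In SCI 2 weeks replicate 2 the count was 195 (34.4% of all tested genes), and in control 2 weeks replicate 3 it was 168 (34.3%). In control 16 weeks replicate 1 it was 165 (36.3%), and in control 8 weeks replicate 2 it was 151 (34.4%). The SCI libraries of 16 weeks were the most even, and their lowest library, replicate 2, held the lowest level for 112 genes (34.1% of all tested genes).

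**Figure D4:**
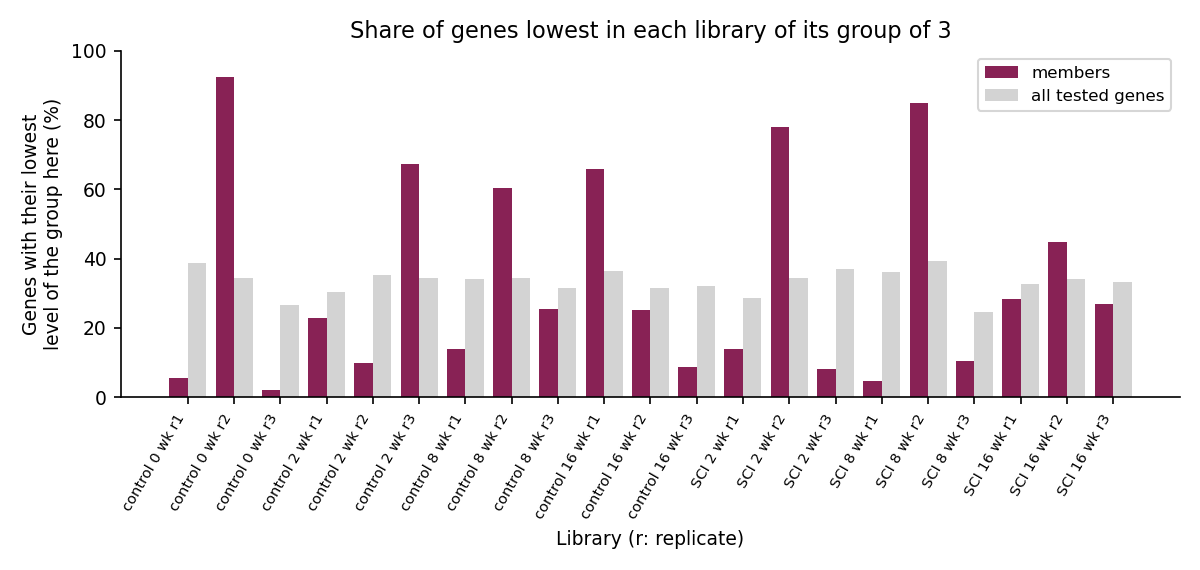
Share of genes whose lowest level among the 3 libraries of a group was found in the library shown, for the 250 late-difference genes (dark) and for all tested genes (grey). The dark bars reach 92.4% in control 0 weeks replicate 2 and 84.8% in SCI 8 weeks replicate 2, while the grey bars stay between 24.6% and 39.3%.

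Because the genes shift together, they do not count as 250 separate observations of a group. The median late difference at 8 weeks was 0.54, 0.71 or 0.58 log2 units without SCI replicate 1, 2 or 3, and at 16 weeks it was between 0.57 and 0.59 without any of the 3. Its direction follows from the rule, which places each SCI library above the controls, so only its size is described here. The number of genes that met the rule was less steady, and was 476 when SCI 8 weeks replicate 2 was left out and 148 when SCI 2 weeks replicate 2 was left out. The division between arms was also followed in 18 sets chosen afresh, each with 1 library of the 2-, 8- or 16-week groups left out. The median control change lay between -0.58 and -0.45 at 8 weeks and between -0.58 and -0.46 at 16 weeks. The median SCI change was from -0.04 to 0.14 at 8 weeks, highest without SCI 8 weeks replicate 2, and from -0.04 to 0.05 at 16 weeks.

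Other properties of the libraries moved in part with the level of these genes. The 10 most abundant genes took 9.78% to 11.8% of all counts in controls of 8 and 16 weeks, 14.3% in control 0 weeks replicate 2 and 6.31% to 10.3% in SCI libraries. In 2-week controls, where the level of the members was high, the share of the 10 most abundant genes was 9.51% to 10.7%. In control 0 weeks replicates 1 and 3, with member levels of 0.317 and 0.106, it was 10.7% and 10.3%. These shares overlapped those of the later controls. The scaling factors by the trimmed mean of M values were 0.922 to 0.988 in the later controls, 0.903 in control 0 weeks replicate 2 and 0.996 to 1.09 in SCI libraries. Their part in the result was not tested beyond another scaling. With library size alone in place of these factors, the 250 genes had a median control change of -0.64 at 8 weeks and -0.57 at 16 weeks, and a median SCI change of 0.04 and -0.01. The median of all tested genes in controls then moved to -0.12 at 8 weeks and -0.06 at 16 weeks. Applied with that scaling the rule chose 547 genes, of which 208 were among the 250.

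The late-difference genes were of above-average abundance. Their mean level had a median of 5.07 log2 CPM, against 4.43 for all tested genes, and ranged from -0.38 to 10.3. Of the members, 132 were at 5 log2 CPM or more, where 40.05% of all tested genes were, and 10 were under 1 log2 CPM. Together they took 1.26% to 2.94% of all counts in a library. This share was 1.31% to 1.66% in controls of 8 and 16 weeks, 1.99% to 2.48% in controls of 2 weeks and 1.97% to 2.94% in SCI libraries. As a share of counts, the later controls lay below every SCI library and every 2-week control. The same counts chose the genes, so this restates the rule in part.

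The pattern was much the same at low and high levels. In the 84 members of lowest level (up to 4.29 log2 CPM) the median control change at 16 weeks was -0.49, in the 83 members above them -0.50 and in the 83 of highest level -0.50. The median SCI change at 16 weeks was 0.09, -0.02 and -0.05 in the same order. The median late differences were larger among the lowest, 0.66 at 8 and 0.65 at 16 weeks, than among the highest, 0.57 and 0.56. The spread between replicates, as the SD pooled over groups, was also larger among the lowest, with a median of 0.294 log2 units against 0.254. Only 13 members had a count under 10 in any library. The part of counting error in the differences was not tested.

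The 2 genes named are the member with the largest smaller-of-both late difference among those at 1 log2 CPM or more, and the member with the largest increase in SCI bladders from 2 to 16 weeks. The former, ENSRNOG00000006082, had the pattern of the set. Its levels as scaled CPM were 15.0, 7.87 and 17.1 in 0-week controls, 19.0, 20.2 and 15.6 in 2-week controls, 10.4, 10.4 and 9.11 in 8-week controls and 9.81, 5.75 and 11.8 in 16-week controls. In SCI bladders they were 18.6, 19.1 and 24.3 at 2 weeks, 27.8, 13.5 and 19.4 at 8 weeks and 16.5, 15.8 and 22.6 at 16 weeks. The 6 later controls were low, the SCI libraries of all weeks overlapped the 2-week controls, and SCI 8 weeks replicate 2 was the lowest SCI library.

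For ENSRNOG00000006082 the fitted log2 difference between SCI and control was 1.03 (SE 0.29) at 8 weeks and 1.004 (SE 0.29) at 16 weeks, a 2.04-fold and a 2.01-fold higher level. At 2 weeks it was 0.17 (SE 0.28). In controls the fitted difference from 2 weeks was -0.88 (SE 0.29) at 8 weeks and -1.004 (SE 0.29) at 16 weeks. In SCI bladders these differences were -0.02 (SE 0.28) and -0.17 (SE 0.28), smaller than their errors. The gene was picked for its late difference, so these values are a description with no test.

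The latter gene, ENSRNOG00000019718, was one of the 8 members for which the increase in SCI bladders exceeded the decline in controls at both weeks. Its levels as scaled CPM were 3.15, 6.64 and 4.35 in 0-week controls, 5.17, 9.72 and 6.69 in 2-week controls, 3.90, 9.28 and 2.47 in 8-week controls and 7.42, 11.2 and 12.4 in 16-week controls. In SCI bladders they were 6.38, 12.3 and 5.87 at 2 weeks, 17.7, 25.4 and 29.7 at 8 weeks and 13.6, 21.3 and 14.3 at 16 weeks. All 6 later SCI libraries were above every control and above every SCI library of 2 weeks, while the controls of the 4 times overlapped in part. Its fitted difference from 2 weeks in SCI bladders was 1.56 log2 units (SE 0.39) at 8 weeks and 1.00 (SE 0.39) at 16 weeks, or 2.95-fold and 2.00-fold. It was picked for its increase in SCI bladders, so these values are a description with no test.

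**Figure D5:**
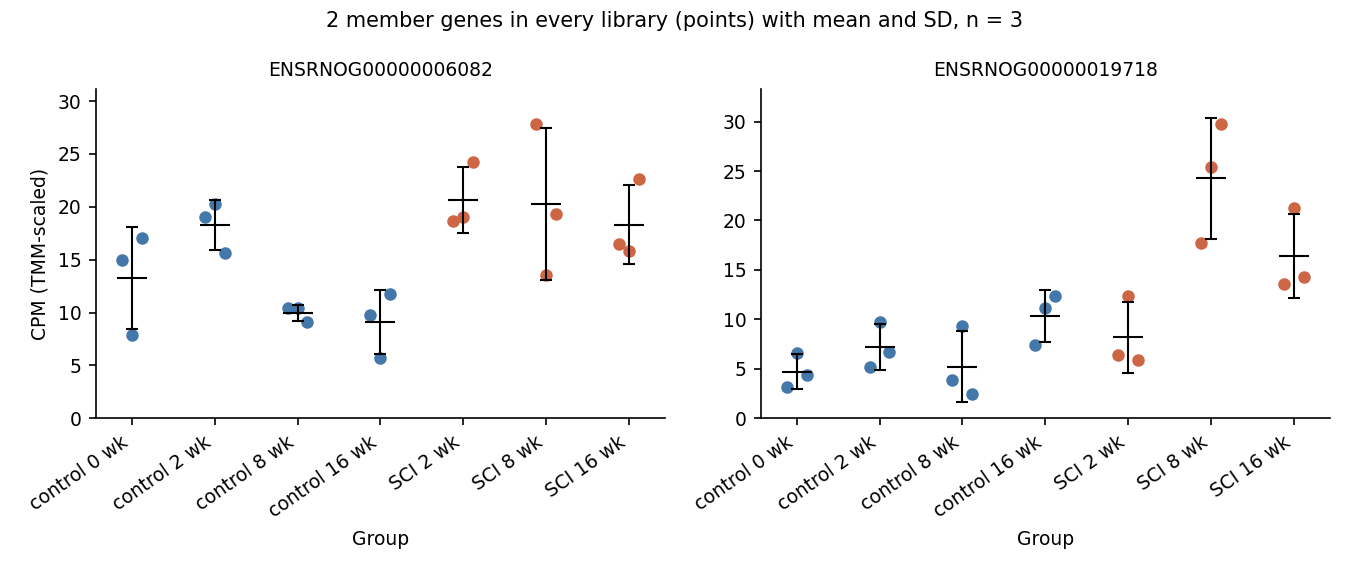
Level of 2 of the late-difference genes in every library, as TMM-scaled CPM, with the mean and SD of each group (n = 3). ENSRNOG00000006082 is low in the later controls (5.75 to 11.8 CPM), and ENSRNOG00000019718 is high in the later SCI bladders (13.6 to 29.7 CPM).

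The 5 members with an increase of at least 0.4 log2 units in SCI bladders at both weeks were the nearest to a late increase after injury. Their changes in SCI bladders lay between 0.41 and 1.59 at 8 weeks and between 0.55 and 1.03 at 16 weeks. Their changes in controls lay between -0.61 and -0.35 at 8 weeks, and between -0.52 and 0.52 at 16 weeks. All 5 thus combined an SCI increase with a control decline at 8 weeks, and at 16 weeks 3 did. One of them, at a mean of 0.62 log2 CPM, had as few as 2 counts in a library, and its values carry a large counting error. These 5 were picked by their values and are a description.

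The same division was seen among the genes nearest to this set. The 213 genes that met the 8- and 16-week conditions and had a 2-week difference above 0.2 had a median control change of -0.45 at 8 weeks and -0.50 at 16 weeks, and a median SCI change of -0.08 and -0.10. The 194 genes of the mirrored rule, lower in SCI bladders at 8 and 16 weeks with little difference at 2 weeks, had median control changes of 0.46 and 0.44 and median SCI changes of -0.16 and -0.09. By contrast, the 10 genes that were lower in SCI bladders by more than 0.2 at 2 weeks and higher later had a median SCI change of 0.48 and 0.53, beside control changes of -0.58 and -0.55. These sets share libraries with the late-difference genes and were also chosen by their levels, so no difference between them was tested.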

How the data were processed

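The authors deposited unnormalized whole-number counts, one value per Ensembl gene and library. The authors depleted ribosomal RNA, prepared stranded libraries, sequenced 51 bp paired-end reads and summed the counts of 2 flow cells. The submitters' processing notes name Trim Galore 0.6.10, STAR 2.7.10a, featureCounts 2.0.3 and the build Rnor_6.0. Whether counting used strand, and with which annotation release, is not given in the sources used here, so overlapping, antisense or near-identical genes may share reads. All 21 columns were matched to samples by name.

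Genes were filtered with filterByExpr on the 7 groups, scaled by TMM and fitted in 1 quasi-likelihood model of all libraries (edgeR 4.0.16, R 4.3.3) with 14 residual degrees of freedom and Benjamini-Hochberg adjustment over 15225 genes. The common biological coefficient of variation was 0.160. Log2 CPM used a prior count of 2. At the smallest total of 8087726 counts, 1 CPM rests on few counts and is imprecise. Changes on the log2 CPM scale understate those of low genes.

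The members and lists were chosen with earlier results of these data known, and the gene lists could not be used without symbols. The rule for named genes then allows 2 identifiers: the head of its ranking by late difference and the head of its ranking by increase in SCI bladders, the choice between rankings being made after values were seen. Replicates of every group differed by more than sampling noise (chi-square per degree of freedom 7.22 to 59.9 over genes with at least 10 counts). The scripts were tested on simulated data. Alternatives were each library left out, a replicate block, no filter on low counts, a prior count of 0.5, scaling by RLE or by library size alone, DESeq2 1.42.0, and models restricted to the groups compared or without 0-week controls. Added after seeing the data were the medians of changes over time with single libraries left out, all medians of changes from 0 weeks, and the counts of the division between arms and of the position of the 0-week mean without SCI 8 weeks replicate 2 or control 0 weeks replicate 2. The labels give the same batch for all libraries. Nothing states that replicates came from separate surgeries or days, so p-values measure only the spread between these samples.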

Additional observations from a re-analysis of the deposited data

How the results depend on the processing

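The 250 genes were kept fixed for the counts of calls. At 2 weeks 0 members were called for SCI against control in any of the alternatives run, and for SCI bladders at 16 against 2 weeks likewise. Shares of all tested genes called by the same fit, in either direction, follow in brackets. DESeq2 called 138 (11%) at 16 weeks (SCI against control), 29 (1.77%) and 70 (5.9%) for controls at 8 and 16 against 2 weeks, and 1 (0.296%) for controls at 2 against 0 weeks. With no count filter, 14 (0.572%) were called for controls at 16 against 2 weeks. Fits of only the groups compared called 25 (1.74%) at 8 weeks and 187 (13.5%) at 16 weeks (SCI against control), and 45 (2.97%) and 128 (10.3%) for controls at 8 and 16 against 2 weeks. RLE factors changed no count by more than 1.5 times. Apart from these settings' own construction, the cause was not tested.

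With the replicate block, 3 (0.0525%) and 49 (3.3%) members were called for controls at 8 and 16 against 2 weeks and 1 (0.0263%) for SCI bladders at 8 against 2 weeks, and no other count moved by more than 1.5 times. Whether the numbers pair the animals was not settled. Deviations of same-numbered libraries correlated from -0.24 to 0.38, above 0.1 in 16 of 63 pairs. Their median was 0.018, against -0.023 for pairs of other numbers. Of 21 libraries, 11 correlated best with their own number, and no chance value was set beside this count.

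Single libraries were left out in turn. For SCI against control at 8 weeks the counts ranged from 0 (0.401%, without SCI replicate 3) to 166 (17.1%, without SCI replicate 2), with 2 (0.21%) without SCI replicate 1 and 22 (2.95%) to 39 (3.44%) without 1 control. At 16 weeks they ranged from 0 without control replicate 1 (0.118%) or SCI replicate 1 (0.0788%) to 26 (3.31%) without control replicate 2, with 1 (0.112%) and 11 (0.703%) without SCI replicates 3 and 2 and 18 (1.29%) without control replicate 3. For controls at 16 against 2 weeks the range was 0 to 6 (1.29%), and for controls at 2 against 0 weeks 0 to 4 (0.506%), the latter without control 0 weeks replicate 3. For controls at 8 against 2 weeks and for SCI bladders at 8 against 2 weeks it was 0 throughout (DESeq2 29 and 0).

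The number of genes chosen by the rule was 547 with library size only and with 1 library left out was lowest at 148 (SCI 2 weeks replicate 2) and highest at 476 (SCI 8 weeks replicate 2). For the 250 genes, the median control change from 2 to 8 weeks was -0.64 with library size only. Leaving out 1 library kept it between -0.577 and -0.440, and kept the change from 2 to 16 weeks between -0.566 and -0.433. In SCI bladders the median change spanned -0.0741 to 0.140 at 8 weeks. At 16 weeks it spanned -0.0756 to 0.0732. Between 0 and 2 weeks the median control change turned direction to -0.0858 without control 0 weeks replicate 2, and its highest value was 0.322. From 0 to 8 weeks it spanned -0.588 to -0.174, and -0.591 to -0.161 was the span from 0 to 16 weeks. A count under 10 in any library was found for 13 members, and the effect of depth was not tested.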
